A study of Mus musculus with 12 samples.

Results

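Prostaglandins and leukotrienes are lipid mediators made from arachidonic acid. The expression of 9 genes of their synthesis and signalling, Pla2g4a, Ptgs1, Ptgs2, Ptges, Ptger2, Ptger4, Alox5, Alox5ap and Ltc4s, was followed in mouse bone marrow-derived dendritic cells (BMDC). The genes were taken by symbol from the 55335 genes listed in the RNA-seq tables, and all 9 were found and passed the filter on low counts, which left 14357 genes. Bone marrow came from C57BL/6 mice of either sex aged 8 to 12 weeks and was grown with GM-CSF, a cytokine that drives precursors toward a monocyte-derived dendritic cell state, and CD11c+ cells were then selected. All 12 libraries came from WT cells, which carried the CreER transgene at the Rosa26 locus and an intact Ctcf gene. WT cells were left without lipopolysaccharide (LPS), and WTL cells received 100 ng/ml LPS, a bacterial cell wall component, for 3 h. The WT + JSH23 and WTL + JSH23 groups were the corresponding cells after a 3 h pre-treatment with 100 µM JSH-23, a compound that blocks the movement of RelA, an NF-κB subunit, to the nucleus. Each group had 3 libraries, numbered 4 to 6 in WT and WTL and 1 to 3 in the JSH-23 groups. The methods of the study describe the replicates as biological, but whether libraries came from separate animals or cultures, whether WT and WTL cells received the solvent of JSH-23, and whether these cultures had the tamoxifen derivative used elsewhere in the study were not stated, so p values measure the spread between these libraries, part of which may be technical.

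The pathway begins when cytosolic phospholipase A2 releases arachidonic acid from membranes. Cyclooxygenases turn it into prostaglandin H2, from which prostaglandin E synthase makes prostaglandin E2 (PGE2), a regulator of dendritic cell migration and cytokine output that acts through receptors such as EP2 and EP4. In the other branch, 5-lipoxygenase with its activating protein makes leukotriene A4, and leukotriene C4 synthase joins that to glutathione to give the cysteinyl leukotrienes.

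Total expected counts per library ran from 24664724 to 34837847. CPM denotes expected counts relative to the TMM-scaled library size and was used to compare libraries, while TPM, which corrects for transcript length, was used to compare genes. Replicates of a group differed more than sampling noise allows, with a chi-square per degree of freedom of 2.33 or above, and WTL + JSH23 replicate 3 stood apart with 8.18 and 9.11 against at most 4.50 between other pairs. All 10 dendritic cell markers examined were expressed, with summed TPM between 21800 and 24500 in every library. Most of that sum was Cd74, H2-Aa and H2-Ab1, at means of 14100, 4650 and 3590 TPM in WT. Flt3 averaged 2.94 TPM there. Marker sums do not measure the proportions of cell types. All 10 macrophage markers were expressed too, at 3120 to 3230 summed TPM in WT, 3260 to 3370 in WTL, 2440 to 2510 in WT + JSH23 and 2750 to 2890 in WTL + JSH23. Of 11 mast cell and basophil markers only Kit and Hdc averaged 1 CPM or more, and Tpsb2, Tpsab1 and Mcpt4 were listed at 0 in all 12 libraries. Neutrophil markers were low, at 172 to 226 summed TPM with 6 of 10 at 1 CPM or more, and of the platelet markers Pf4 and Ppbp reached that level, with sums from 416 to 666 TPM. Of the 6 eosinophil markers 1 reached it and of the 6 lymphocyte markers 0 did.

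Positions are on the mouse genome GRCm38 (mm10). Ptgs2 (ENSMUSG00000032487.8) spans chr1:150100031-150108227 on the plus strand, and Pla2g4a (ENSMUSG00000056220.14) spans chr1:149829618-149961290 on the minus strand. The gap of 138740 bp between them holds 0 protein-coding genes, so the phospholipase and the inducible cyclooxygenase are neighbours. Ptgs1 (ENSMUSG00000047250.13) lies at chr2:36230426-36252272 on the plus strand and Ptges (ENSMUSG00000050737.13) at chr2:30889471-30929863 on the minus strand, with 87 protein-coding genes between them. The receptor genes Ptger2 (ENSMUSG00000037759.6) and Ptger4 (ENSMUSG00000039942.15) are at chr14:44988195-45003820 on the plus strand and chr15:5206661-5244187 on the minus strand. Ptger4 overlaps the protein-coding gene Ttc33 on the opposite strand, and whether counting used strand was not stated, so its counts may hold reads of Ttc33. The leukotriene genes Alox5 (ENSMUSG00000025701.12), Alox5ap (ENSMUSG00000060063.9) and Ltc4s (ENSMUSG00000020377.15) are at chr6:116410077-116461178 on the minus strand, chr5:149264767-149288153 on the plus strand and chr11:50236461-50238616 on the minus strand. Of the other members, Ptgs1, Ptger2, Pla2g4a, Alox5ap and Ltc4s overlap non-coding or unclassified transcripts on the opposite strand, and Ptges overlaps the processed pseudogene Gm13400 on its own strand.

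The 250 bases upstream of the RefSeq gene start (GRCm38.p6) are given for the 4 genes with the largest changes, since Ptgs1 and Ptgs2 encode isozymes that moved in opposite directions with LPS, Ptges rose beside Ptgs2, and Ptger2 moved most with JSH-23. Each runs 5′ to 3′ toward the gene start, and capitals mark matches, on either strand, to a C/EBP motif (TTNNGNAA) or a GC box (GGGCGG). The windows are chr2:36230176-36230425 on the plus strand for Ptgs1, chr1:150099781-150100030 on the plus strand for Ptgs2, chr2:30903298-30903547 on the minus strand for Ptges, and chr14:44987861-44988110 on the plus strand for Ptger2. The Ptges window lies inside the GENCODE span given above, because RefSeq places the gene start further downstream, and which start these cells use is not known from gene-level counts.
Ptgs1: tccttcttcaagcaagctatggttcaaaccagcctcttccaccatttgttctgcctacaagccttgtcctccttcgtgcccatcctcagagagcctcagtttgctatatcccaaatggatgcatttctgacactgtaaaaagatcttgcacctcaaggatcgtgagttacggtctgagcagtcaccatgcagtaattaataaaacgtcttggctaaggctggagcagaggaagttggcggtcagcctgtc
Ptgs2: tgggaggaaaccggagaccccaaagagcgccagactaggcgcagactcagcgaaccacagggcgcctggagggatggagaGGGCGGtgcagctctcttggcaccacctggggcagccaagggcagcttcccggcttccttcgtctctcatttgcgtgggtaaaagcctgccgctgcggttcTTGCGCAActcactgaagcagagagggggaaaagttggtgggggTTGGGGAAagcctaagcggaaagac
Ptges: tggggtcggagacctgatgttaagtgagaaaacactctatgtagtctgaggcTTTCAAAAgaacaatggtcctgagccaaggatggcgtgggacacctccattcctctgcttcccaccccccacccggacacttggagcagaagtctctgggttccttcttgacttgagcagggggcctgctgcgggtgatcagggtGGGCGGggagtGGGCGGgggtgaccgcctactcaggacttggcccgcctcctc
Ptger2: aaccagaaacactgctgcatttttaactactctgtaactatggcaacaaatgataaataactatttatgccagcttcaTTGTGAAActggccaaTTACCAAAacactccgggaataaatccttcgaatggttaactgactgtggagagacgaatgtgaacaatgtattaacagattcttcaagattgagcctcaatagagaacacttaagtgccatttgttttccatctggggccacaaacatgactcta
The Ptgs2 window held C/EBP matches at positions -69 and -25 from the gene start and a GC box at -170. The Ptges window held a C/EBP match at -198 and GC boxes at -53 and -42, and the Ptger2 window held C/EBP matches at -172 and -156, whereas the Ptgs1 window held none of the motifs searched. C/EBP matches occurred in 36.8% of 32851 mouse promoter windows of the same length and GC boxes in 32.7%. The NF-κB consensus (3.9% of windows), the cAMP response element TGACGTCA (1.55%) and the E-box CACGTG (6.02%) matched none of the 8 members in the table, Alox5ap having no entry. A match describes letters only, and the lack of one says nothing of sites outside these windows.

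Pla2g4a encodes the cytosolic phospholipase A2 that opens the pathway. It was moderately expressed and was higher both with LPS and with JSH-23. Its CPM was 39.0, 44.9 and 40.6 in WT, 54.9, 53.5 and 51.5 in WTL, 62.0, 57.2 and 57.4 in WT + JSH23 and 74.6, 72.5 and 68.1 in WTL + JSH23. The groups did not overlap in any of the 4 pairwise comparisons. Pla2g4a rose with LPS by 0.36 on the log2 scale (SE 0.0555, edgeR adjusted p = 7.17e-06) without JSH-23 and by 0.29 (SE 0.0532, adjusted p = 0.000107) with it. With JSH-23 it rose by 0.50 (SE 0.0544, adjusted p = 1.32e-07) without LPS and by 0.43 (SE 0.0542, adjusted p = 9.77e-07) under LPS. In these bulk samples more RNA per cell and more cells of an expressing type cannot be told apart, here and for every gene below. On log2(TPM + 1) the rise with LPS under JSH-23 was 0.13 and no longer passed (limma adjusted p = 0.0959).

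**Figure D1:**
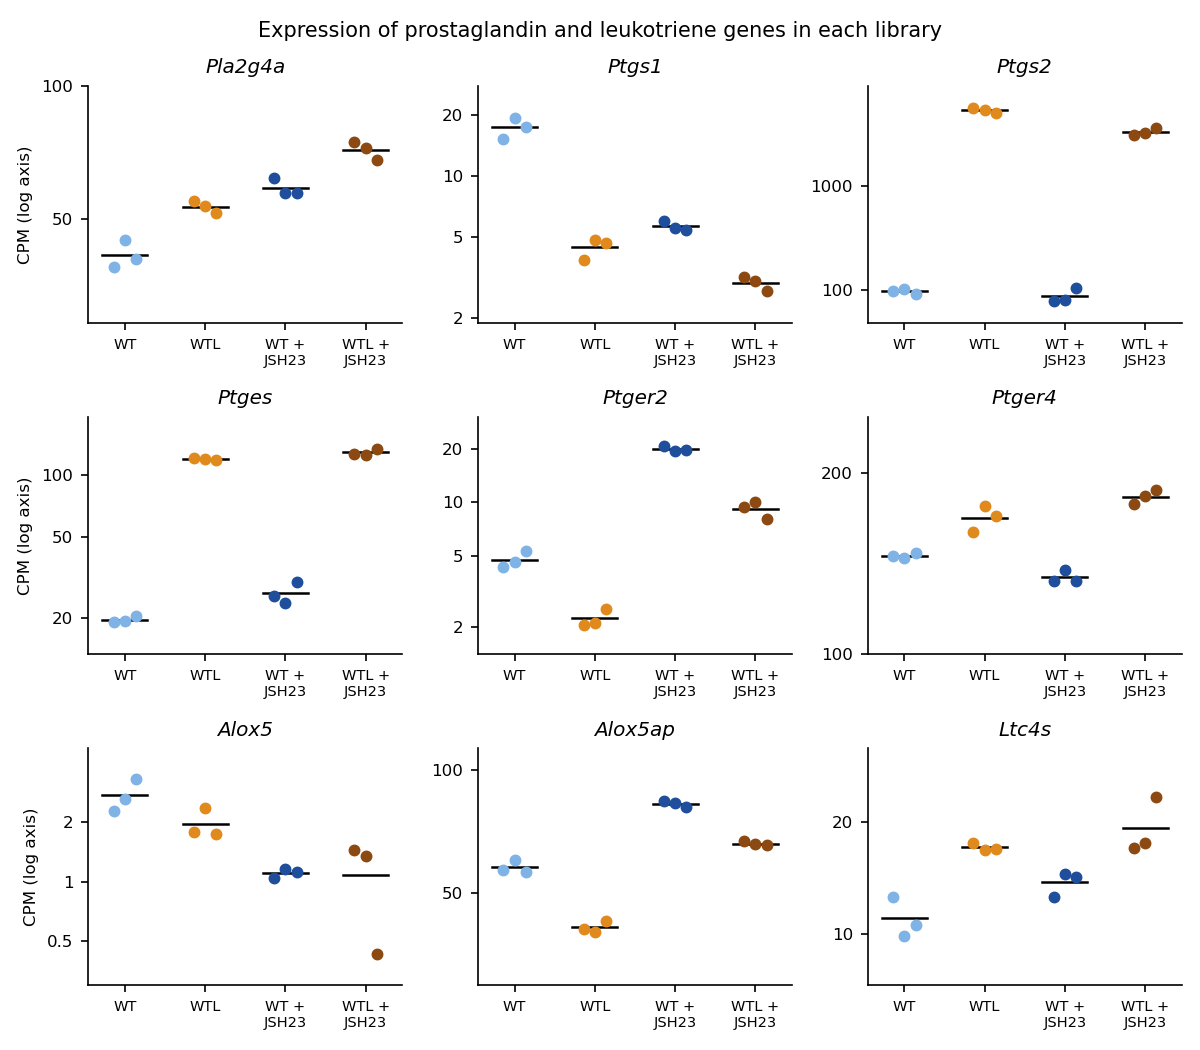
CPM (log axis, scale differing by panel) of the 9 genes in each library of the 4 groups, with points for libraries and bars for means of 3 libraries. Ptgs2 lies between 77.9 and 106 CPM in all libraries without LPS and between 3063 and 5612 CPM in those with LPS.

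Ptgs2 encodes COX-2, the inducible cyclooxygenase. Its CPM was 98.8, 102 and 92.7 in WT and 5612, 5309 and 5015 in WTL, so that every LPS library lay far above every library without it. With JSH-23 the values were 77.9, 81.1 and 106 without LPS and 3063, 3229 and 3564 under LPS. All 3 WTL + JSH23 libraries were below all 3 WTL libraries, while replicate 3 of WT + JSH23 lay above all WT libraries and the other two below them. LPS raised Ptgs2 54.2-fold without JSH-23 (log2 5.76, SE 0.0932, adjusted p = 1.09e-21) and 37.2-fold with it (log2 5.22, SE 0.0914, adjusted p = 6.93e-21), the 21st largest rise of 14357 genes in either comparison. Under LPS, JSH-23 lowered Ptgs2 1.62-fold (log2 -0.69, SE 0.0752, adjusted p = 1.07e-07). Without LPS the change was -0.15 (95% interval -0.34 to 0.04, adjusted p = 0.157), and without WT + JSH23 replicate 3 it was -0.30 and passed (adjusted p = 0.000709), as did -0.15 with no filter on low counts (adjusted p = 0.00304). At 3285 ± 256 CPM (SD, n = 3), Ptgs2 in WTL + JSH23 thus remained far above the 98.0 ± 4.90 CPM of WT.

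Ptgs1 encodes COX-1, the isozyme usually regarded as constitutive, and it fell where Ptgs2 rose. Its CPM was 15.3, 19.4 and 17.5 in WT, 3.87, 4.83 and 4.70 in WTL, 6.02, 5.53 and 5.44 in WT + JSH23 and 3.19, 3.06 and 2.72 in WTL + JSH23. WT stood above the other 3 groups with no overlap, and WTL + JSH23 stood lowest. LPS lowered Ptgs1 3.89-fold without JSH-23 (log2 -1.96, SE 0.103, adjusted p = 3.95e-13) and 1.89-fold with it (log2 -0.92, SE 0.129, adjusted p = 3.45e-06). JSH-23 alone lowered it 3.06-fold (log2 -1.61, SE 0.0966, adjusted p = 1.32e-11), and under LPS it lowered it 1.49-fold (log2 -0.57, SE 0.137, adjusted p = 0.00149). Macrophages also express Ptgs1, and the macrophage markers moved in both directions. In WTL, mean CPM was lower than in WT for 6 of 10 markers and higher for 4. Mean TPM was lower for 8 and higher for 2, on a scale where the median log2(TPM + 1) change of all genes was -0.26. In WT + JSH23 mean CPM and mean TPM were both lower than in WT for 7 of 10 and higher for 3. The marker sum was higher in WTL with Cd14, which LPS raises. Adgre1, Mertk and Apoe also had a higher mean CPM in WTL, at 265, 104 and 208 against 223, 57.1 and 178 in WT. Without Cd14 alone, left out after its values were seen, the sum was 2820 to 2930 TPM in WT and 1990 to 2140 in WTL. It was 1990 to 2060 in WT + JSH23 and 1540 to 1580 in WTL + JSH23. The part of such cells or of their markers in the fall of Ptgs1 was not tested.

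Per transcript length, COX-2 made up most of the cyclooxygenase mRNA in every group. Its share of the summed Ptgs1 and Ptgs2 TPM was 75.1%, 70.6% and 71.4% in the 3 WT libraries, and 87.7%, 86.7% and 91.5% in those of WT + JSH23. With LPS it was between 99.81% and 99.86% in all 6 libraries, with or without JSH-23. The TPM ratio of COX-2 to COX-1 was 2.64 ± 0.33 (SD, n = 3) in WT, 636 ± 89.6 in WTL, 8.13 ± 2.27 in WT + JSH23 and 610 ± 78.4 in WTL + JSH23. The WTL ratios (533 to 692) and the WTL + JSH23 ratios (519 to 656) overlapped, although both isozymes were lower in WTL + JSH23. With 3 libraries per group an exact permutation test cannot give a p below 0.10, and none was run on these ratios.

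**Figure D2:**
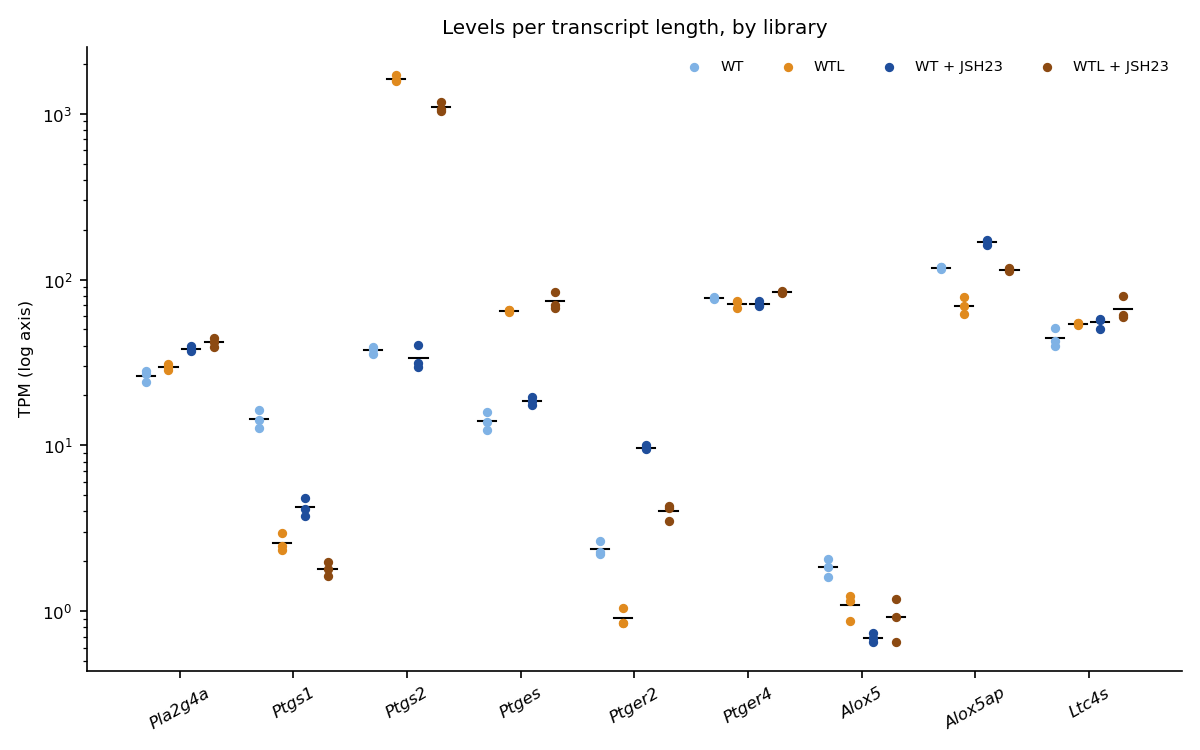
TPM (log axis) of the 9 genes, with points for the libraries of each group and bars for means of 3 libraries. Alox5ap is highest in both groups without LPS, Ptgs2 is highest in both groups with LPS, and Alox5 is lowest or next to lowest in every group.

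Ptges encodes microsomal prostaglandin E synthase-1, the inducible enzyme that makes PGE2 from the product of COX-2. Its CPM was 19.2, 19.5 and 20.5 in WT, 121, 120 and 119 in WTL, 25.8, 23.8 and 30.2 in WT + JSH23 and 128, 126 and 134 in WTL + JSH23. Libraries with LPS lay above those without by a wide gap, and each JSH-23 group lay slightly above its counterpart with no overlap. LPS raised Ptges 6.08-fold (log2 2.60, SE 0.0613, adjusted p = 5.19e-19) without JSH-23 and 4.85-fold (log2 2.28, SE 0.0594, adjusted p = 4.54e-18) with it. JSH-23 alone raised it by 0.43 on the log2 scale (SE 0.0673, adjusted p = 1.79e-05). Under LPS the JSH-23 change was 0.11 (SE 0.0529, 95% interval -0.01 to 0.23, adjusted p = 0.0918), in contrast to the fall of Ptgs2 in the same comparison. It passed in the fit to those 2 groups alone (adjusted p = 0.0292) and without WT + JSH23 replicate 3 (adjusted p = 0.0329).

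The other enzymes that can make PGE2, Ptges2 and Ptges3, were set beside it for their level and were chosen after their values were seen. Ptges was 1.86 ± 0.135 times as abundant per length as Ptges2 in WT and 7.4 ± 0.352 times in WTL (TPM ratios, SD, n = 3). Against Ptges3, a cochaperone also described as the cytosolic PGE2 synthase, the ratio was 0.164 ± 0.0232 in WT and 0.594 ± 0.0260 in WTL. The ratios in the JSH-23 groups were 2.01 ± 0.194 and 9.52 ± 2.68 for Ptges2 and 0.174 ± 0.00965 and 0.609 ± 0.0954 for Ptges3, without and with LPS. Ptges3 transcripts were thus the more abundant in all 4 groups.

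Ptger2 encodes EP2, a PGE2 receptor coupled to cAMP synthesis, and it was the member that moved most with JSH-23. Its CPM was 4.34, 4.64 and 5.31 in WT, 2.05, 2.10 and 2.53 in WTL, 20.6, 19.5 and 19.7 in WT + JSH23 and 9.46, 9.99 and 8.08 in WTL + JSH23. No 2 groups overlapped. JSH-23 raised Ptger2 4.20-fold without LPS (log2 2.07, SE 0.0892, adjusted p = 8.46e-14), the 72nd largest rise of 14357 genes, and 4.16-fold under LPS (log2 2.06, SE 0.120, adjusted p = 6.27e-12). LPS lowered it 2.15-fold without JSH-23 (log2 -1.10, SE 0.129, adjusted p = 1.78e-07) and 2.17-fold with it (log2 -1.12, SE 0.0838, adjusted p = 2.55e-10). The LPS changes with and without JSH-23 differed by -0.01 on the log2 scale, with a 95% interval from -0.41 to 0.38 (adjusted p = 0.969). Ptger2 counts ran from 53 to 672 per library.

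Ptger4 encodes EP4, the other cAMP-coupled PGE2 receptor, and it was the abundant one. Its CPM was 145, 144 and 147 in WT, 160, 176 and 170 in WTL, 132, 138 and 132 in WT + JSH23 and 178, 183 and 187 in WTL + JSH23. The groups did not overlap in the pairs compared, but they lay close together. With LPS, Ptger4 CPM rose by 0.21 on the log2 scale (SE 0.0401, adjusted p = 9.45e-05) without JSH-23 and by 0.45 (SE 0.0403, adjusted p = 5.38e-09) with it, while on log2(TPM + 1) the first of these changes was -0.12 (limma adjusted p = 0.0222), so its direction depended on the scale. JSH-23 changed Ptger4 by -0.12 (SE 0.0402, adjusted p = 0.0216) without LPS and by 0.11 (SE 0.0401, adjusted p = 0.0221) under LPS. Under LPS the call was lost if WTL replicate 4 was left out (adjusted p = 0.149), if replicate 3 of WTL + JSH23 was (adjusted p = 0.0608) and with DESeq2 (adjusted p = 0.0735), and without LPS it was lost without WT replicate 4 or 6 or WT + JSH23 replicate 1 or 3 (adjusted p between 0.0508 and 0.0799).

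The ratio of the receptor mRNAs followed these levels. The TPM ratio of Ptger4 to Ptger2 was 32.9 ± 2.87 (SD, n = 3) in WT, 78.8 ± 7.65 in WTL, 7.35 ± 0.362 in WT + JSH23 and 21.3 ± 2.70 in WTL + JSH23. The ratios of no 2 groups overlapped, with WT between 29.7 and 35.2, WTL between 71.0 and 86.3, WT + JSH23 between 7.0 and 7.72 and WTL + JSH23 between 19.6 and 24.4.

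Alox5ap encodes FLAP, which presents arachidonic acid to 5-lipoxygenase. Its CPM was 57.0, 60.4 and 56.4 in WT, 41.0, 40.3 and 42.8 in WTL, 84.0, 83.2 and 81.1 in WT + JSH23 and 67.1, 65.9 and 65.5 in WTL + JSH23. WT + JSH23 was highest and WTL lowest, and no 2 groups overlapped. LPS lowered Alox5ap by 0.49 on the log2 scale (SE 0.0441, adjusted p = 3.09e-09) without JSH-23, a 1.40-fold fall, and 1.25-fold with it (log2 -0.32, SE 0.0417, adjusted p = 1.10e-06). JSH-23 raised it 1.43-fold (log2 0.51, SE 0.0414, adjusted p = 1.45e-09) without LPS and 1.60-fold (log2 0.68, SE 0.0444, adjusted p = 3.99e-11) under LPS.

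Alox5, the gene of 5-lipoxygenase itself, was expressed at a low level. Its CPM was 2.29, 2.62 and 3.31 in WT, 1.78, 2.37 and 1.75 in WTL, 1.04, 1.16 and 1.12 in WT + JSH23 and 1.45, 1.35 and 0.432 in WTL + JSH23, from 10 to 96 counts per library. WT was above both JSH-23 groups, WT and WTL overlapped, and replicate 3 of WTL + JSH23 was the lowest library. JSH-23 lowered Alox5 2.46-fold without LPS (log2 -1.30, SE 0.257, adjusted p = 0.000298). Under LPS the fall was 1.80-fold (log2 -0.85, SE 0.282, adjusted p = 0.0167), but leaving out replicate 3 of WTL + JSH23 gave -0.50 (adjusted p = 0.0826), leaving out replicate 5 of WTL gave -0.68 (adjusted p = 0.0983), and it was -0.13 on log2(TPM + 1) (limma adjusted p = 0.382). The LPS change was -0.46 without JSH-23 (95% interval -1.01 to 0.10, adjusted p = 0.0994) and -0.01 with it (95% interval -0.71 to 0.69, adjusted p = 0.989). The first of these passed in other fits, with no filter on low counts (-0.47, adjusted p = 0.0438), on log2(TPM + 1) (-0.45, limma adjusted p = 0.00338), on log2(TPM + 0.1) (-0.71, limma adjusted p = 0.0097), in the 2 groups alone (-0.44, adjusted p = 0.0364) and without WTL + JSH23 replicate 3 (-0.46, adjusted p = 0.0299). Macrophages also express Alox5, whose fall with JSH-23 alone came with the lower macrophage marker sum given above. In that comparison 5 other members rose, Alox5ap among them. The part of such cells was not tested.

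FLAP mRNA exceeded that of 5-lipoxygenase everywhere. The TPM ratio of Alox5ap to Alox5 was 64.5 ± 8.13 (SD, n = 3) in WT, 65.1 ± 14.3 in WTL, 243 ± 8.45 in WT + JSH23 and 132 ± 38.1 in WTL + JSH23. Ratios of WT (57.5 to 73.4) and WTL (49.9 to 78.2) overlapped, and those of the JSH-23 groups were higher, at 234 to 249 and 97.0 to 173.

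Ltc4s encodes leukotriene C4 synthase, the committing enzyme of the cysteinyl leukotrienes. Its CPM was 12.6, 9.93 and 10.6 in WT, 17.6, 16.8 and 16.9 in WTL, 12.6, 14.5 and 14.2 in WT + JSH23 and 17.0, 17.5 and 23.3 in WTL + JSH23. The LPS groups lay above their counterparts with no overlap, while WTL and WTL + JSH23 overlapped. LPS raised Ltc4s 1.55-fold without JSH-23 (log2 0.63, SE 0.104, adjusted p = 1.74e-05) and 1.40-fold with it (log2 0.48, SE 0.101, adjusted p = 0.000392), the latter 0.26 on log2(TPM + 1) and no longer passing (limma adjusted p = 0.0592). JSH-23 raised it 1.25-fold without LPS (log2 0.32, SE 0.105, adjusted p = 0.0197), a call lost without WT replicate 5 or 6 or WT + JSH23 replicate 2 or 3 (adjusted p between 0.0641 and 0.116). Under LPS the JSH-23 change was 0.16 (95% interval -0.07 to 0.40, adjusted p = 0.191).

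Mast cells also express Ltc4s, and the summed TPM of the mast cell and basophil markers was 15.4 to 17.2 in WT, 22.3 to 25.2 in WTL, 8.69 to 9.32 in WT + JSH23 and 11.5 to 13.6 in WTL + JSH23. Most of that sum was Hdc, at a mean of 10.8 TPM in WT and 19.4 in WTL, and the tryptase genes Tpsb2 and Tpsab1 were listed at 0. Mean TPM was lower in WTL than in WT for 6 of the 11 markers and higher for 2, Hdc and Mcpt8, and mean CPM was lower for 4 and higher for 4, so that Hdc set the higher sum with LPS. With JSH-23 the sum was lower, with Hdc at a mean of 5.59 TPM in WT + JSH23 and 8.74 in WTL + JSH23, and Ltc4s was not lower. The part of such cells in the changes of Ltc4s was not tested. Lta4h, whose enzyme competes for leukotriene A4 to make leukotriene B4, was named after its values were seen. The TPM ratio of Ltc4s to Lta4h was 1.33 ± 0.201 in WT, 2.70 ± 0.144 in WTL, 1.71 ± 0.147 in WT + JSH23 and 2.65 ± 0.479 in WTL + JSH23, so that it was higher in both LPS groups (2.29 to 3.20) than in those without LPS (1.19 to 1.82).

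The order of the 9 genes by TPM changed with LPS. In WT, Alox5ap was highest at 118 ± 1.70 TPM (SD, n = 3), followed by Ptger4 at 77.7 ± 1.23, Ltc4s at 44.5 ± 5.90, Ptgs2 at 37.7 ± 1.69 and Pla2g4a at 26.4 ± 1.90. Ptgs1 at 14.4 ± 1.81 and Ptges at 14.1 ± 1.78 overlapped, and Ptger2 at 2.38 ± 0.244 and Alox5 at 1.85 ± 0.225 were lowest. In WTL, Ptgs2 at 1622 ± 70.5 stood first, and Ptger4 at 71.5 ± 3.64, Alox5ap at 69.5 ± 8.07 and Ptges at 64.8 ± 1.29 followed, each overlapping the next.

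Ltc4s at 54.2 ± 1.07 TPM and Pla2g4a at 29.8 ± 1.07 came next in WTL, ahead of Ptgs1 at 2.58 ± 0.327, with Alox5 at 1.09 ± 0.189 and Ptger2 at 0.913 ± 0.110 overlapping at the bottom. In WT + JSH23, Alox5ap led at 168 ± 5.72, Ptger2 at 9.71 ± 0.287 stood above Ptgs1 at 4.25 ± 0.556, and Pla2g4a at 38.3 ± 1.38 overlapped Ptgs2 at 33.9 ± 5.58. In WTL + JSH23, Ptgs2 led at 1093 ± 72.3 and Alox5ap followed at 115 ± 2.55, while Ptger4 at 84.3 ± 1.18, Ptges at 74.0 ± 9.05 and Ltc4s at 66.8 ± 11.3 overlapped in sequence.

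LPS without JSH-23 changed most members. In that comparison 5 rose (Ptgs2, Ptges, Ltc4s, Pla2g4a and Ptger4), 3 fell (Ptgs1, Ptger2 and Alox5ap) and Alox5 did not pass, beside 31.0% of all genes tested rising and 34.7% falling. Beyond 2-fold, 2 members rose and 2 fell, beside 7.36% and 9.09% of all genes. The libraries of the groups did not overlap for 8 of 9 members, beside 69.9% of all genes. With JSH-23 the same 5 rose, the same 3 fell and Alox5 did not pass, beside 27.4% of all genes rising and 27.1% falling. Ptgs2 and Ptges rose and Ptger2 fell by more than 2-fold there, beside 5.85% and 4.49% of all genes, and 8 of 9 members did not overlap, beside 59.1% of all genes. The median change of the members was 0.21 without JSH-23 and 0.29 with it, where all genes had medians of -0.05 and -0.02.

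JSH-23 without LPS raised 5 members (Ptger2, Alox5ap, Pla2g4a, Ptges and Ltc4s) and lowered 3 (Ptgs1, Alox5 and Ptger4), while Ptgs2 did not pass, beside 18.8% of all genes rising and 22.1% falling. Ptger2 rose and Ptgs1 and Alox5 fell by more than 2-fold, beside 2.43% and 2.94% of all genes, and 8 of 9 members did not overlap, beside 51.5% of all genes. Under LPS 4 rose (Ptger2, Alox5ap, Pla2g4a and Ptger4), 3 fell (Alox5, Ptgs2 and Ptgs1) and Ptges and Ltc4s did not pass, beside 24.5% of all genes rising and 24.2% falling. There 1 member, Ptger2, rose and 0 fell by more than 2-fold, beside 3.75% and 3.25% of all genes, and without WTL + JSH23 replicate 1 or 2 the number beyond 2-fold was 2, with Alox5 added. In this comparison too 8 of 9 members did not overlap, beside 54.8% of all genes. The median change of the members was 0.32 without LPS and 0.12 under LPS, where all genes had medians of -0.01 and 0.02. The 4 comparisons share libraries with each other, WT or WTL among them, so their values are not independent.

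**Figure D3:**
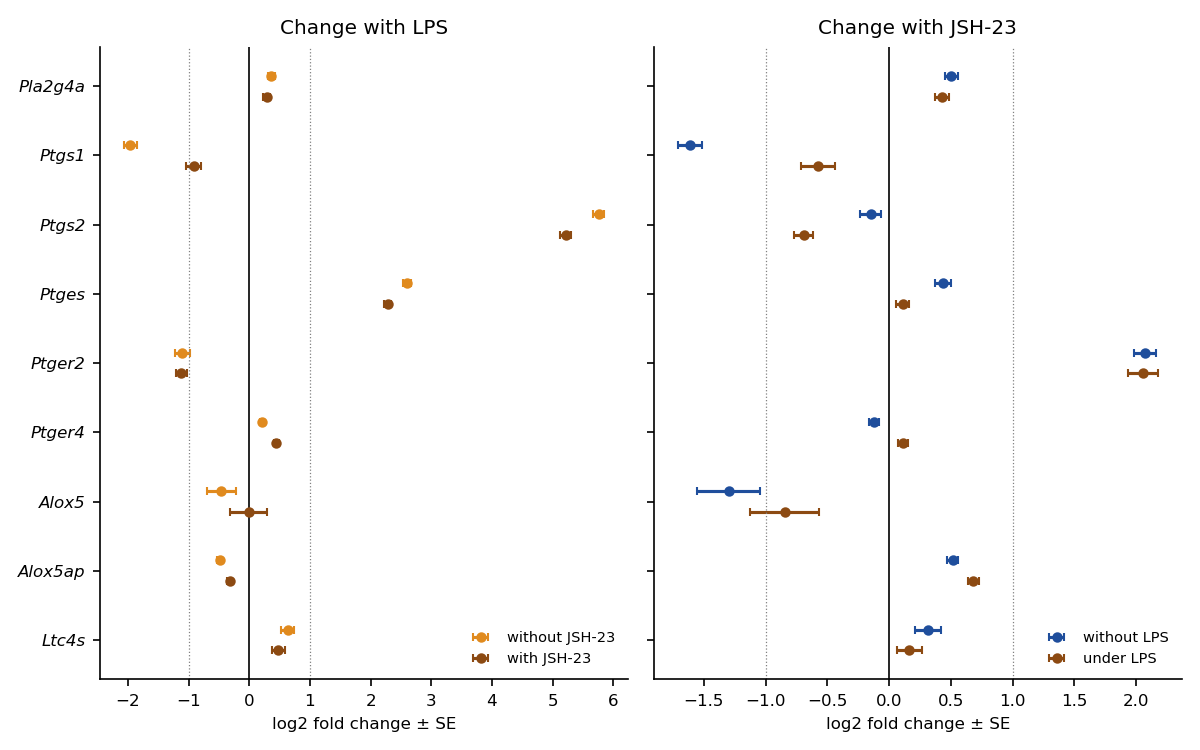
Log2 fold changes with LPS (left) and JSH-23 (right) of the 9 genes, each in the absence and the presence of the other agent, with bars for the SE and dotted lines at 2-fold. Ptgs2 and Ptges move furthest with LPS and Ptger2 furthest with JSH-23.

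Whether the LPS change itself differed with JSH-23 was tested by the interaction, here the change in JSH-23 cells minus the change in cells without the compound. It passed for 4 of 9 members, 2 in each direction, beside 9.54% of all genes with a positive and 8.44% with a negative difference. Ptgs1 fell less with LPS when JSH-23 was present, with a difference of 1.04 on the log2 scale (SE 0.171, adjusted p = 0.000194), and its WT + JSH23 level was already lower than its WT level. Ptgs2 rose less, by a difference of -0.54 (SE 0.112, adjusted p = 0.00176), and so did Ptges, by -0.32 (SE 0.0856, adjusted p = 0.0113). Ptger4 rose more, by 0.23 (SE 0.0568, adjusted p = 0.00635). The smaller Ptges rise came with a higher level before LPS and with WTL + JSH23 libraries that all lay above those of WTL, whereas for Ptgs2 they all lay below.

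On log2(TPM + 1) the Ptgs2 and Ptges differences were -0.41 and -0.20 and no longer passed (limma adjusted p = 0.0537 and 0.346), while that of Alox5 did (0.62, adjusted p = 0.0254). In the edgeR fit the differences of the other 5 members did not pass. They were 0.17 for Alox5ap (95% interval 0.03 to 0.31, adjusted p = 0.0621), -0.08 for Pla2g4a (-0.25 to 0.10), -0.15 for Ltc4s (-0.49 to 0.18), 0.45 for Alox5 (-0.44 to 1.35) and the value near 0 given above for Ptger2.

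The wider pathway was covered by 8 lists of 75 further genes, of which 56 passed the filter. With LPS and no JSH-23, 12 rose, 29 fell and 15 did not pass, and 1 rose and 9 fell by more than 2-fold. The median change of the 56 was -0.32, beside -0.05 for all genes. With JSH-23 and no LPS, 19 rose, 13 fell and 24 did not pass, and 2 rose and 2 fell by more than 2-fold, with a median of 0.04 beside -0.01. LPS in the presence of JSH-23 gave 12 higher and 23 lower, beside 27.4% and 27.1% of all genes. JSH-23 under LPS gave 21 higher and 8 lower, beside 24.5% and 24.2%. The shares of all genes given above beside the members apply here and to each list below. With LPS alone 31.0% of all genes rose and 34.7% fell, and 7.36% and 9.09% did so by more than 2-fold. With JSH-23 alone these shares were 18.8% and 22.1%, and 2.43% and 2.94% by more than 2-fold. The interaction passed for 12, of which 8 were positive and 4 negative, beside 9.54% and 8.44% of all genes.

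Among the 15 tested genes of arachidonate supply, 3 rose and 8 fell with LPS. Fads1, the delta-5 desaturase that makes arachidonic acid, went from 38.9 ± 1.10 CPM in WT to 11.4 ± 0.481 in WTL (log2 -1.77, SE 0.0588, adjusted p = 1.45e-16). It was 52.8 ± 2.66 in WT + JSH23 and 23.0 ± 0.637 in WTL + JSH23 (log2 -1.20, SE 0.0521, adjusted p = 2.93e-14). The secreted phospholipase gene Pla2g2d fell with JSH-23 alone, from 2.11 ± 0.344 to 0.968 ± 0.165 CPM (log2 -1.13, SE 0.218, adjusted p = 0.000219). Pla2g4b, at about 1 CPM, rose with LPS in the presence of JSH-23 (log2 1.18, SE 0.372, adjusted p = 0.0108), while its LPS change without JSH-23 was -0.09 (adjusted p = 0.828) and the interaction did not pass (adjusted p = 0.0913). That call was lost without WT + JSH23 replicate 1 or 3 (adjusted p = 0.057 and 0.0567).

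Of the 5 tested synthases that share the COX product with Ptges, 2 rose and 3 fell with LPS. Tbxas1, thromboxane A synthase, went from 71.7 ± 2.34 CPM in WT to 27.1 ± 1.00 in WTL (log2 -1.40, SE 0.0501, adjusted p = 4.92e-16). With JSH-23 it was 39.8 ± 1.77 CPM without LPS and 26.2 ± 1.06 under LPS, so that the LPS fall was smaller (log2 -0.60, interaction 0.80, SE 0.0729, adjusted p = 2.44e-07), a pattern like that of Ptgs1. Hpgds, the haematopoietic prostaglandin D2 synthase, fell with LPS (log2 -0.86, SE 0.190, adjusted p = 0.00045) and was named after its values were seen. Ptgds, the other prostaglandin D2 synthase gene, and Ptgis, the prostacyclin synthase gene, did not pass the filter on low counts.

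Of 7 further prostanoid receptor genes only Ptger1 and Ptgir, the prostacyclin receptor, passed the filter. Ptgir, named after its values were seen, fell with LPS (log2 -0.59, SE 0.0447, adjusted p = 1.85e-10) and rose with JSH-23 (log2 0.64, SE 0.0422, adjusted p = 5.77e-11), the directions of Ptger2. Among the 5 genes of breakdown and transport, none rose and 4 fell with LPS. Ptgr1, the gene of prostaglandin reductase 1, was 55.5 ± 0.524 CPM in WT and 196 ± 15.4 in WT + JSH23 (log2 1.82, SE 0.0613, adjusted p = 1.82e-15), and 44.6 ± 1.63 in WTL and 158 ± 15.1 in WTL + JSH23. Hpgd, also on that list, did not pass the filter on low counts.

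In the leukotriene branch, 1 of 8 tested enzyme and export genes rose and 4 fell with LPS, and 3 rose and 1 fell with JSH-23 alone. Ggt5, which converts leukotriene C4 to D4, fell with LPS from 1.34 ± 0.0772 to 0.573 ± 0.201 CPM (log2 -1.23, SE 0.277, adjusted p = 0.000541). Cysltr1, the receptor for the cysteinyl leukotrienes, fell with both agents. Its CPM was 26.4 ± 0.448 in WT, 11.6 ± 1.61 in WTL, 5.76 ± 0.348 in WT + JSH23 and 2.73 ± 0.720 in WTL + JSH23. The fall was -1.18 on the log2 scale with LPS (SE 0.0915, adjusted p = 2.52e-10) and -2.20 with JSH-23 (SE 0.0995, adjusted p = 1.90e-13), while Ltc4s rose in both comparisons. Of 6 other lipoxygenase genes only Alox12 passed the filter, and Alox15 did not.

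EP2 and EP4 act through cAMP, and 17 genes of cAMP signalling were all tested. With LPS 6 rose and 8 fell, beside 31.0% and 34.7% of all genes. Beyond 2-fold 1 rose and 5 fell, beside 7.36% and 9.09% of all genes. With JSH-23 alone 5 rose and 5 fell, beside 18.8% and 22.1% of all genes. The adenylate cyclase genes Adcy7 and Adcy9 fell with LPS by 1.51 (SE 0.0693, adjusted p = 3.54e-14) and 1.80 (SE 0.150, adjusted p = 9.24e-10) on the log2 scale. The phosphodiesterase genes moved apart, Pde4a falling (log2 -1.30, SE 0.0999, adjusted p = 2.32e-10) and Pde4b rising (log2 1.23, SE 0.0358, adjusted p = 1.62e-17). The remaining falls beyond 2-fold were Prkar2a and Adcy3, named after their values were seen. Crem, a cAMP-responsive gene, rose with JSH-23 alone from 6.01 ± 0.338 to 13.9 ± 0.956 CPM (log2 1.21, SE 0.0796, adjusted p = 5.64e-11). In the same comparison Adcy7 fell (log2 -0.89, SE 0.0661, adjusted p = 3.96e-10). The phosphodiesterase gene Pde4d, named after its values were seen, rose (log2 0.90, SE 0.0928, adjusted p = 6.83e-08). Whether cAMP signalling changed was not tested.

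**Figure D4:**
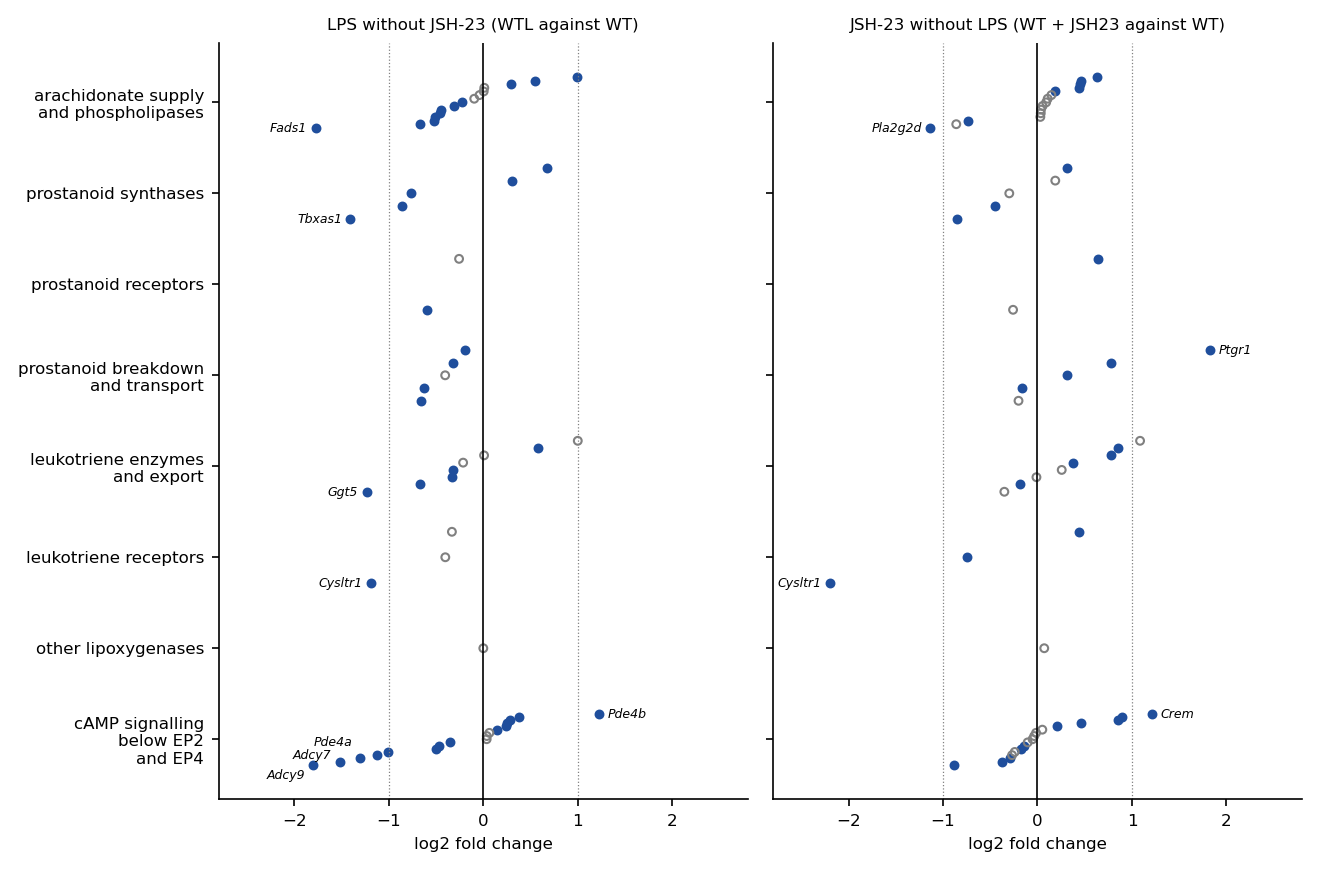
Log2 fold changes of the 56 tested genes of the wider lists with LPS (left) and with JSH-23 (right), 1 point per gene, filled where the adjusted p was under 0.05 and open elsewhere, with dotted lines at 2-fold. Labels mark genes named here that passed 2-fold, except Prkar2a and Adcy3, which lie beyond 2-fold for LPS without a label. Most filled points lie left of 0 for LPS, and Ptgr1 and Cysltr1 lie furthest out for JSH-23.

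The genes whose pattern over the 12 libraries was most like that of a member were found by Pearson's r of log2 CPM among 11027 protein-coding genes, as a description, since the libraries of a group share their treatment. Ptgs2 was followed closely by Ptx3 and Csf1 (r = 0.999 each), and Ptges by Src, Cxcl1 and Cxcl2 (r = 0.999 each). The nearest to Ptgs1 were Relch, P2rx7 and Adam19 (r between 0.989 and 0.991), and the nearest to Ptger2 were Ergic1, Vmp1 and Fabp4 (0.986 to 0.987). Pla2g4a was most like Cd53, Lilr4b and Il1f9 (0.983 to 0.993), and Alox5ap most like Naip2, Tanc2 and Acvrl1 (0.994 to 0.996). The likeness was lower for Ptger4 (Ttyh3, Traf3 and Trappc10, 0.963 to 0.973) and Ltc4s (Mprip, Entr1 and Erc1, 0.967 to 0.974), and lowest for Alox5 (Thrb, St3gal4 and Ythdc2, 0.929 to 0.936).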

How the data were processed

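The authors trimmed paired reads with Trim Galore, aligned them to mm10 with STAR (2.6.0c per the submitters' processing notes) and quantified genes with RSEM. The deposited expected counts were estimated per gene without normalization between libraries, and the deposited TPM values were scaled by the authors for effective transcript length. The GENCODE release and any use of strand in counting are not given in the sources used here, and labels and methods name different RNA selection kits. Symbols and positions came from GENCODE M21, which matched 55154 of 55335 identifiers without version. The members and gene lists were chosen with earlier results of these data known.

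Expected counts were rounded, genes filtered with filterByExpr (14357 left) and libraries scaled by TMM in edgeR 4.0.16 (R 4.3.3). A quasi-likelihood F-test was fitted to all 12 libraries with 1 mean per group and 8 residual degrees of freedom, two-sided, with Benjamini-Hochberg adjustment over all genes tested. Printed adjusted p values are from it unless another tool is named. A gene passed at an adjusted p under 0.05, and calls of pairs also needed more than 2-fold. The SE is the change divided by the root of F. Scripts were tested on simulated data. Alternatives were DESeq2 1.42.0, limma 3.58.1 on log2(TPM + 1) and log2(TPM + 0.1), other scaling and filters, 2-group fits, a replicate block, other call rules and each library left out.

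All 9 members were named. Genes of the wider lists were named where called in a pairwise comparison if the higher group averaged 1 CPM or more, up to 5 per list, and exceptions are marked. For each member the 3 genes most like it were named, except 1 gene that is not reported here. Deviations of same-numbered libraries correlated weakly (0.014 to 0.061, below the 0.1 set for pairing), so the numbers were not taken as pairs.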

Additional observations from a re-analysis of the deposited data

Results flagged for a closer look

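By the interaction term of the edgeR fit, the response to LPS was not the same in the presence and absence of JSH-23 for 4 members and 7 genes of the wider lists named above. The differences, each the log2 change with JSH-23 minus that without, were 1.04 for Ptgs1, -0.54 for Ptgs2, -0.32 for Ptges and 0.23 for Ptger4. They were 0.58 for Fads1 (adjusted p = 3.40e-05), 0.80 for Tbxas1, 0.65 for Adcy9 (adjusted p = 0.0413), -0.40 for Crem (adjusted p = 0.0205) and 0.58 for Pde4a (adjusted p = 0.00735), and, of genes named after their values were seen, -0.28 for Ptges3 (adjusted p = 0.0027) and 0.32 for Prkar2a (adjusted p = 0.00381). That of Adcy9 did not pass with 8 of the 12 libraries left out in turn, and that of Crem did not pass without WT replicate 5, WTL replicate 5 or WT + JSH23 replicate 3. On log2(TPM + 1) they were 0.46 (limma adjusted p = 0.122) for Adcy9 and -0.06 (limma adjusted p = 0.863) for Crem.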

How the results depend on the processing

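Of the values of members, 867 kept their direction and side of the threshold across alternatives, 24 lost and 13 gained a pass, and 14 changed sign. Without a fold threshold 8, 8, 7 and 8 members passed (LPS without and with JSH-23, JSH-23 under and without LPS) and 41, 35, 29 and 32 genes of the wider lists, and with 2-fold added to the interaction 1 and 0 did. On log2(TPM + 1), where the median of all genes was -0.26 and -0.16 for LPS without and with JSH-23 (-0.05 and -0.02 in edgeR), 2 genes of the wider lists were called beyond 2-fold for LPS with JSH-23, against 8. With single libraries left out that count ran from 5 (without WTL + JSH23 replicate 3) to 8, and the members called for JSH-23 under LPS from 1 to 2. Signs changed for LPS without JSH-23 on log2(TPM + 1) and log2(TPM + 0.1), to -0.12 and -0.12 for Ptger4 and to -0.14 and -0.15 for Crem. Alox5 for LPS with JSH-23 changed to 0.00395 with DESeq2 size factors and to 0.17 and 0.33 on the TPM scales, and ran from -0.28 to 0.34 with libraries left out. The Ptger2 interaction changed to 0.0291 on log2(TPM + 0.1), and ran from -0.0938 to 0.0718 with libraries left out. The causes were not tested. With the replicate number as a block, 9539, 7960 and 2968 genes passed for LPS without JSH-23, LPS with it and the interaction, against 9437, 7828 and 2582, no count of members called changed, and same-numbered libraries correlated best in 5 of 6 cases. The JSH-23 comparisons share no number. Alox5, with 10 to 96 counts per library, had the fewest counts of the members and the widest intervals.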
